A study of Mus musculus with 6 samples.

Results

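Mouse gonadal cells made from embryonic stem cells, at culture day 6 (Induced D6), were compared with the XX gonad of the E11.5 embryo within cells that carry the Nr5a1 transcript. A cell was taken as Nr5a1-positive when it held at least 500 detected genes, at most 10% mitochondrial UMIs (unique molecular identifiers, 1 per captured transcript), at least 1 UMI of Nr5a1 and at least 1 UMI of Gata4 or Wt1. Cells with 3 or more summed UMIs of Dazl, Ddx4, Dppa3, Dppa5a and Pou5f1, which mark germ and pluripotent cells, were left out. This gave 2174 of the 7519 quality-passing Induced D6 cells (28.9%, 95% exact binomial interval 27.9% to 30.0%) and 786 of the 2720 E11.5 cells (28.9%, 27.2% to 30.6%). Together they are 2960 of the 28621 quality-passing cells of the series. The 2 shares of 28.9% depend on the depth of the cells, which differed. When each cell was first thinned to 3000 UMIs, 1030 induced and 188 E11.5 cells met the rule. The shares are therefore not read as equal fractions of Nr5a1-expressing cells.

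The E11.5 library came from ICR embryos, and the induced cells from embryonic stem cells of a 129svj x C57BL/6J background. The stem cells were grown as aggregates through 3 steps of 2 days each. The first step used CHIR (an inhibitor of GSK3 that raises Wnt signalling), BMP4 and EGF. The second used BMP4, retinoic acid, PD0325901 (a MEK inhibitor), SHH and EGF, and the last used BMP4 and FGF9. Both libraries were made with the same droplet kit (10x Chromium 3′ v2) after papain dissociation. There was 1 library on each side, so there is no replicate check and no p-value, and all intervals cover counting error only. Strain, culture and library cannot be told apart in this comparison. Whether a library pooled embryos or aggregates is not given in the sources used here. ICR XX gonads at E10.5 (56 cells by the same rule), E12.5 (858), E13.5 (758) and E14.5 (600), also 1 library each, serve as descriptive levels.

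Nr5a1 (steroidogenic factor 1), Gata4 and Wt1 are transcription factors that the bipotential gonad needs to form from the coelomic epithelium. In XX embryos a part of these somatic cells becomes pregranulosa cells, which surround the germ cells and later form the follicles, under Wnt4, Rspo1, Runx1 and Foxl2. Other Nr5a1-lineage cells become stroma and steroid-producing cells. Lhx9 and Emx2 are homeobox genes also needed at the primordium stage.

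The cells were chosen by their UMIs of Nr5a1, Gata4, Wt1 and the germ cell genes, so these values are a description only. Nr5a1 stood at 93.4 CPM (UMIs of the gene per 1000000 UMIs of the summed cells) at E11.5 and 189 CPM in Induced D6, Gata4 at 125 and 149, and Wt1 at 460.1 and 762. Exactly 1 Nr5a1 UMI, the least the rule accepts, was held by 59.8% of the E11.5 cells (470) and 71.5% of the induced cells (1555). Just outside it, 15 E11.5 and 29 induced cells had an Nr5a1 UMI but none of Gata4 or Wt1. The germ cell limit removed 16 E11.5 cells and 0 induced cells.

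The induced cells were shallower, with a median of 6731 UMIs and 2530 genes per cell against 14293 UMIs and 3732.5 genes at E11.5, and the summed UMIs were 16074838 and 14297035. The median mitochondrial share was 3.89% against 3.39%. Of the deposited barcodes, 30 occurred in both libraries, 2 of them among the Nr5a1-positive cells. Markers of other cell types summed to 45.6 CPM in Induced D6 against 50.4 at E11.5 for endothelium (of 9 genes Tie1 was at 0 in Induced D6, and Kdr alone gave 37.9), 1.68 against 5.74 for leukocytes (5 of 9 at 0 in Induced D6) and 11.3 in each for germ cells (9 genes). Erythroid markers summed to 703 CPM at E11.5, where Hbb-y alone gave 348, and 0.187 CPM in Induced D6, where 6 of 9 were at 0. Mesonephric markers were at 85.0 CPM against 12.7 (8 genes, nearly all from Pax8 in Induced D6), coelomic epithelium at 403 against 147, stroma at 596 against 393, and the supporting lineage at 955 against 1477. Heart and smooth muscle markers were at 198 against 124, and limb and lateral plate mesoderm at 98.5 against 67.0. The part of these other markers in the results was not tested.

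Genes at 20 CPM or more in either sum were compared, 6410 in all. Of these, 518 were at least 2-fold higher in the induced cells (8.08%) and 226 at least 2-fold lower (3.53%), so that 69.6% of the genes past 2-fold were higher. At 4-fold the numbers were 104 (1.62%) and 77 (1.2%). The median gene was 0.12 higher on the log2 scale. With that shift subtracted, 420 genes were higher and 305 lower (57.9% higher), and with TMM scaling (edgeR) 407 and 315 (56.4% higher), so the excess of higher genes depended in size on the scaling. A gene under 20 CPM on one side enters only by being high on the other. Among the 5239 genes at 20 CPM or more on both sides, 214 were higher (4.08%) and 92 lower (1.76%). Among the 518 higher genes, 464 (89.6%) stood above their level in each of the 4 libraries E11.5 to E14.5. Among the 226 lower genes, 161 (71.2%) stood below all 4. Of all 6410 genes, 47.1% stood above all 4 libraries and 12.6% below, so a position above them is common in these sums.

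Across genes, the correlation of log2(CPM + 10) between the induced cells and the embryonic cells was 0.913 for E11.5, 0.910 for E12.5, 0.881 for E13.5 and 0.870 for E14.5 (Pearson's r over 6410, 6309, 6399 and 6547 genes, which are not independent replicates and share cell selection and library depth). By the same measure E12.5 and E11.5 had 0.980. Between the E12.5 and E11.5 libraries 42 of 5754 genes passed 2-fold upward (0.73%) and 58 downward (1.01%). Between E14.5 and E11.5 the correlation was 0.884 (6325 genes). By this measure the induced cells lay further from E11.5 than E12.5 did, and nearer than E14.5 did.

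**Figure D1:**
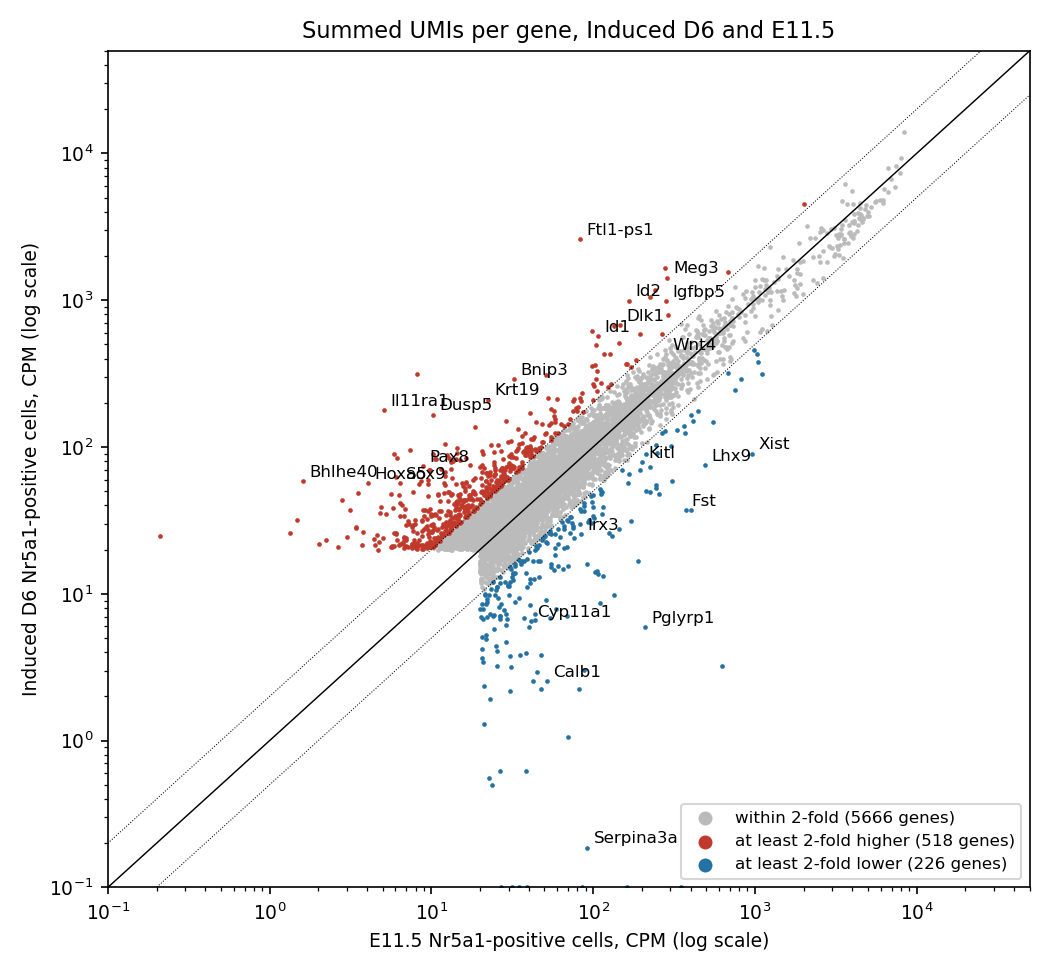
CPM of each of the 6410 genes in the summed Nr5a1-positive cells, E11.5 on the x axis and Induced D6 on the y axis, both on log scales. The solid line marks equal levels and the dotted lines 2-fold, genes at 0 in Induced D6 lie on the lower edge, and Lhx9, Fst and Xist lie far below the line while Il11ra1, Dusp5 and Krt19 lie far above it.

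Of the 12 listed regulators of the gonadal primordium, 7 reached 20 CPM. Lhx9 was lower and Gata6 and Osr1 were higher, while the other 4, among them Emx2, Nr0b1 and Zfpm2, stayed within 2-fold. That is 28.6% higher and 14.3% lower, against 8.08% and 3.53% of all genes. Of the 6 at 20 CPM or more on both sides 1 was higher and 1 lower, against 4.08% and 1.76% of all such genes. Lhx9 (ENSMUSG00000019230, chromosome 1:138825186-138848577, minus strand, GRCm38) stood at 494 CPM at E11.5 (483 to 506) and 75.6 CPM in Induced D6 (71.4 to 80.0). It was 6.54-fold lower (6.15 to 6.95) and below every in vivo level, the lowest of which was 228 CPM at E14.5. Emx2 was at 259 CPM at E11.5 and 164 in Induced D6, a log2 difference of -0.66, and its induced level lay between those of E13.5 (180.4) and E14.5 (144). Nr0b1, which encodes the orphan receptor DAX1, had 37.6 CPM at E11.5 and 61.6 in Induced D6 (log2 difference 0.71). Gata6, a GATA factor close to Gata4, had 161 CPM at E11.5 and 365 in Induced D6, 2.27-fold higher (2.16 to 2.38) and above all stages, which ran from 106 at E10.5 to 161. Osr1, an early marker of intermediate and lateral mesoderm, rose from 3.01 to 24.2 CPM, and E10.5 had 19.8. It passed 20 CPM only through the induced sum. Cbx2, under 20 CPM in both, had 15.9 and 15.6 CPM.

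The pregranulosa list had 10 of 13 genes at 20 CPM or more, of which 5 were lower in the induced cells and 0 higher, against 3.53% lower and 8.08% higher over all genes tested. Bmp2 passed only through the E11.5 sum and could only be lower or within 2-fold. Of the 8 that passed on both sides 4 were lower, against 1.76% of all such genes. The list median was -0.84 on the log2 scale. Fst, which encodes the activin-binding protein follistatin (ENSMUSG00000021765, chromosome 13:114452290-114458951, minus strand), had 373 CPM at E11.5 (363 to 383) and 37.3 in Induced D6 (34.4 to 40.4), 9.99-fold lower (9.18 to 10.9). It was at 3.60 CPM at E10.5 and between 272 and 399 CPM from E12.5 to E14.5, so the induced level lay between E10.5 and E11.5. Bmp2, a ligand made by the ovarian supporting cells, had 69.7 CPM at E11.5 and 15.4 in Induced D6 (4.52-fold lower, 3.93 to 5.22). Irx3, an Iroquois transcription factor of the fetal ovary, had 83.9 and 25.4 (3.30-fold lower, 2.95 to 3.71). Kitl, the ligand through which somatic cells support germ cells, had 200.0 and 79.3 (2.52-fold lower, 2.36 to 2.70). Runx1 had 87.2 and 39.7 (2.20-fold lower, 2.00 to 2.42). All 5 were below their levels in each of the E11.5 to E14.5 libraries.

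The other pregranulosa genes were within 2-fold or under 20 CPM in both sums. Wnt4 had 281 CPM at E11.5 and 429.9 in Induced D6, a ratio of 1.53 (1.47 to 1.59) that stayed within 2-fold, and its induced level was above all in vivo stages. Rspo1 had 168 and 145 CPM, and Wnt6 262 and 179.9. Axin2, a Wnt-induced feedback inhibitor, had 20.7 and 37.1. Foxl2, which sustains granulosa identity, was under 20 CPM in both sums, with 10.7 CPM at E11.5 and 13.2 in Induced D6, and the interval of the ratio (0.996 to 1.53) included no difference. In vivo it reached 25.0 at E12.5 and 92.5 at E13.5. Lgr5 and Irx5, also under 20 CPM in both, had 5.39 and 6.16 CPM at E11.5 and 1.56 and 3.86 in Induced D6. Against E12.5 the Runx1 difference did not reach 2-fold, and in the cells without stromal UMIs its log2 difference was -0.57 (a subset of 498 and 123 cells).

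**Figure D2:**
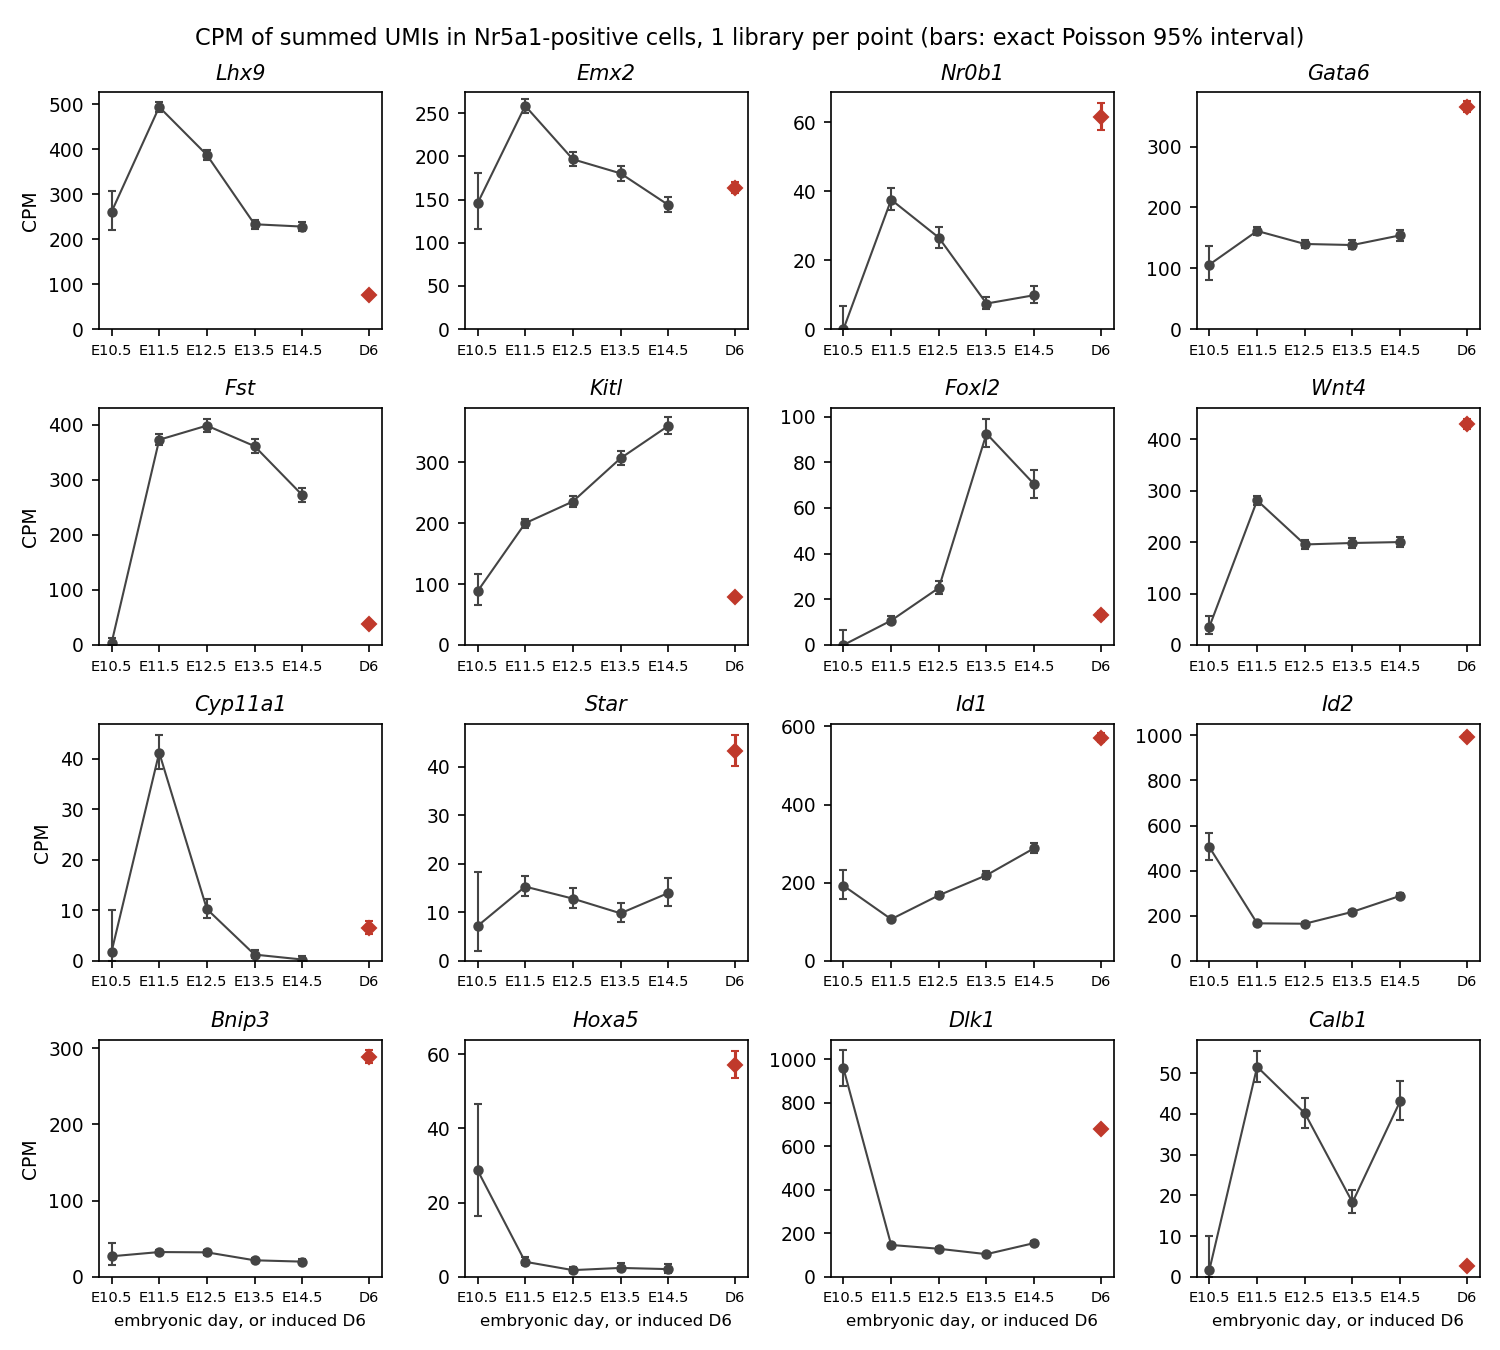
CPM in the summed Nr5a1-positive cells for 16 genes, with E10.5 to E14.5 as grey circles joined by lines and Induced D6 as a red diamond; bars are exact Poisson 95% intervals and each point is 1 library. Lhx9, Fst and Kitl of Induced D6 lie below E11.5, Id1, Id2, Bnip3 and Hoxa5 lie above every stage, and Dlk1 lies between E10.5 and E11.5.

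Because the libraries differ in depth, detection per cell was compared after each cell was thinned to 3000 UMIs, which left 2169 induced cells and 784 E11.5 cells (5 and 2 shallower cells left out). Lhx9 was detected in 71.4% of E11.5 cells (68.1% to 74.6%) and 15.7% of induced cells (14.2% to 17.3%), and without thinning in 92.4% and 30.3%. Fst was detected in 31.8% (28.5% to 35.1%) and 5.26% (4.35% to 6.28%), unthinned 43.3% and 8.88%. Both genes were thus found in fewer induced cells.

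Free RNA puts some UMIs into cells that do not express a gene. Among 304 thinned E11.5 germ cells, at a median depth of 21861 UMIs, 1.64% had an Lhx9 UMI and 0.658% an Fst UMI. Induced D6 held only 7 such germ or pluripotent cells after thinning. There, 161 cells without a UMI of Nr5a1, Gata4 or Wt1 (median 4619 UMIs) were taken instead, of which 3.73% had an Lhx9 UMI and 0.621% an Fst UMI. The induced shares of both genes lay above these values. The same kind of cell at E11.5 (213 cells, median 11919 UMIs) had 10.3% and 1.41%, also under the E11.5 shares.

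Wnt4 was detected in 38.9% of E11.5 cells (35.5% to 42.4%) and 56.6% of induced cells (54.5% to 58.7%), unthinned 65.5% and 75.1%. It was found in 1.97% of the E11.5 germ cells and in 39.1% of the induced cells without a UMI of the 3 genes. In the induced library Wnt4 UMIs were thus also frequent in cells outside the rule. Such cells can hold free RNA or have missed Nr5a1 transcripts, and the part of either in this share was not tested. Foxl2 was detected in 2.55% (1.57% to 3.91%) and 3.83% (3.06% to 4.72%), unthinned 11.6% and 8.14%, with 0 of 304 E11.5 germ cells (a count of 0 here allows up to 0.987%) and 0.621% of the induced cells without a UMI of the 3 genes. The order of the Foxl2 shares turned with the thinning and no difference is read from it. Sox9, the factor that directs Sertoli cell fate and is also active in other embryonic tissues, was detected in 1.02% (0.442% to 2.00%) and 13.6% (12.1% to 15.1%), unthinned 8.27% and 24.6%, against 0 of 304 germ cells and 6.83% of the induced cells without a UMI of the 3 genes. The matching E11.5 cells had 2.35%. Unthinned, 0.321% of the E11.5 germ cells and 5.63% of the matching E11.5 cells had a Sox9 UMI. The E11.5 share thus lay above the germ cells and, when thinned, under the matching cells, which can express Sox9 themselves. It is therefore not called background, and the induced share lay above that of the induced cells without a UMI of the 3 genes.

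**Figure D3:**
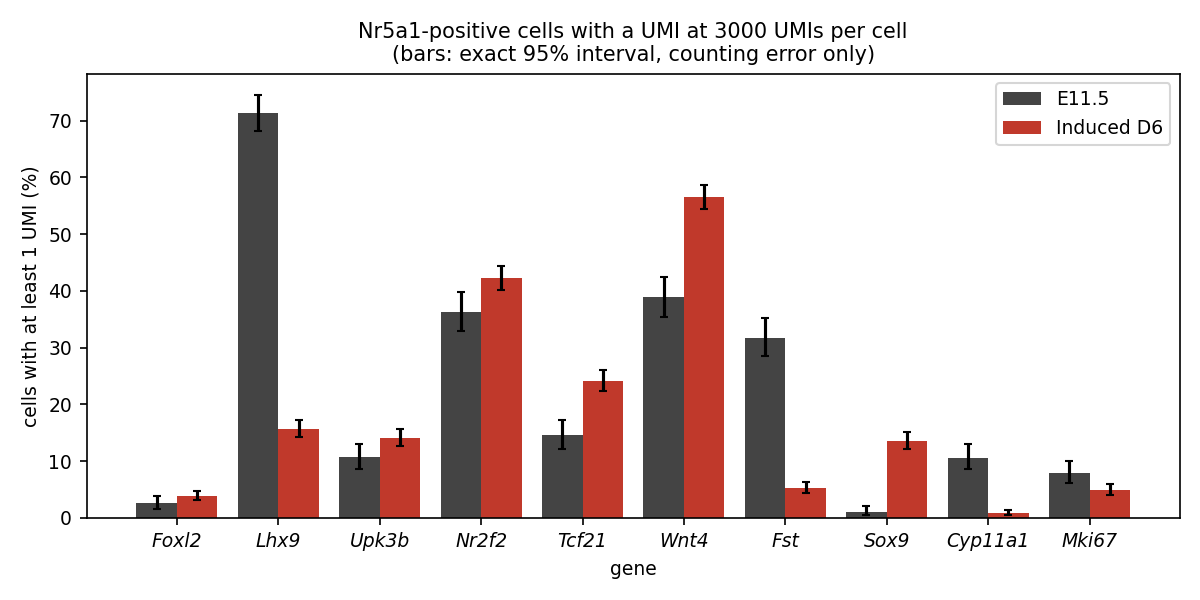
Percent of Nr5a1-positive cells with at least 1 UMI of each of 10 genes after thinning each cell to 3000 UMIs, E11.5 in grey and Induced D6 in red, with exact binomial 95% intervals for counting error. Lhx9 (71.4% against 15.7%), Fst and Cyp11a1 are found in fewer induced cells, and Wnt4, Tcf21 and Sox9 in more.

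Cells with a UMI of a stromal gene (from a short set that includes Nr2f2, Tcf21 and Pdgfra) made up 53.4% of the thinned induced cells and 42.7% of the E11.5 cells. Within Induced D6, Fst was found in 3.45% of the cells with such a UMI and 7.33% of those without, and Foxl2 in 2.42% and 5.45%. At E11.5, Fst was found in 23.9% and 37.6%. In both libraries Fst was therefore less frequent among cells with a stromal UMI, and within each of the 2 kinds of cell it was less frequent in Induced D6.

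The 10 largest decreases among genes at 50 CPM or more included Serpina3a, Siglecg, Pglyrp1, Calb1, Pnliprp2, Serpini1, Hist1h2ap, Xist and Fst (haemoglobin and clone-named genes were set aside). Serpina3a, a serine protease inhibitor gene, had 91.9 CPM at E11.5 and 0.187 CPM in Induced D6, which is 3 UMIs, a ratio of 492-fold lower with a wide counting interval (168 to 2391). It belongs to a family of near-identical copies, so its assignment is uncertain, and it was present at every in vivo stage (76.3 to 190.5 CPM). Siglecg, a sialic acid binding receptor, had 81.2 and 2.24 CPM (36.3-fold lower, 26.0 to 52.0), and Pglyrp1, a peptidoglycan recognition protein, 208 and 5.97 (34.9-fold lower, 28.5 to 43.2). Calb1, the calcium buffer calbindin, had 51.5 and 2.55 (20.2-fold lower, 14.8 to 28.4).

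Several of these genes also declined in vivo. Pnliprp2, a lipase-related gene, had 134 CPM at E11.5, then 33.8, 3.24 and 0 CPM over the next 3 stages, and 9.89 in Induced D6. Siglecg went in vivo from 81.2 to 1.52 CPM by E14.5, below the induced level. Serpini1, which encodes neuroserpin, had 190.2 CPM at E11.5, 41.6 at E14.5 and 16.6 in Induced D6. Hist1h2ap, a replication-dependent histone gene that shares sequence with its copies and is therefore uncertain, had 405 and 37.0, while Hist1h2ae had 35.5 and 22.2. At E10.5 the levels differed widely. Siglecg and Pnliprp2 had 0 UMIs there, and Pglyrp1, Calb1, Fst and Serpini1 were between 1.80 and 7.19 CPM, while Serpina3a was at 101, Hist1h2ap at 550.2 and Xist at 944 CPM.

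The 10 largest increases were Bhlhe40, Il11ra1, Ftl1-ps1, Dusp5, Scrn1, Hoxa5, Mgp, Camk2n1, Tgm2 and Krt19, and each was above all in vivo stages. Bhlhe40, a transcriptional repressor, had 1.61 CPM at E11.5 and 58.9 in Induced D6 (36.6-fold, 24.3 to 58.1). Il11ra1, an interleukin 11 receptor gene with a near-identical copy (Il11ra2, at 0 UMIs in every library), had 5.11 and 178 (34.9-fold, 27.7 to 44.7), and is uncertain because reads of the copies can be assigned differently. Ftl1-ps1, annotated as a copy of the ferritin light chain gene, had 83.0 and 2624 CPM (31.6-fold), while Ftl1 had 3323 and 2758. Reads of these ferritin copies cannot be told apart with certainty either. The strains differ between the libraries, and the part of read assignment in these differences was not tested. Scrn1 had 5.88 and 90.0, the matrix protein gene Mgp 6.16 and 84.7, the CaMKII inhibitor gene Camk2n1 7.41 and 95.6, and the transglutaminase gene Tgm2 6.02 and 62.1. Dusp5, Hoxa5 and Krt19 are described with their groups.

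Genes of other gonadal lineages were mixed. Of 12 Sertoli genes 4 reached 20 CPM, 3 of them only through the induced sum. Sox9 had 6.36 CPM at E11.5 and 57.0 in Induced D6 (8.95-fold, 7.21 to 11.2), and 28.8 at E10.5. Cldn11, a tight junction gene, had 16.1 and 37.3, and Gadd45g, a stress gene needed for early Sry expression in XY gonads, was lower with 331 and 131. Amh and Dmrt1, which mark committed Sertoli cells among others, were under 20 CPM, with 0.140 and 14.1 CPM at E11.5 and 0.871 and 3.86 in Induced D6. The Cldn11 call was lost in 4 of 17 other settings, and Gadd45g had a log2 difference of only -0.40 against E12.5.

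Among the 14 coelomic epithelium and mesothelium genes, 8 reached 20 CPM. The keratin gene Krt19 was the only member past 2-fold, with 22.4 CPM at E11.5 and 210.3 in Induced D6 (9.39-fold, 8.37 to 10.6). Upk3b had 53.6 and 98.4 CPM (ratio 1.83, 1.68 to 2.00), above all stages from E11.5. Krt7 and Krt8 stayed within 2-fold in the other direction, at log2 differences of -0.62 and -0.72. The 8 measured genes therefore held no shared direction, and their median was -0.03. The members under 20 CPM in both sums all had more CPM in Induced D6, among them Upk1b (0.420 and 14.9) and Gpm6a (1.89 and 7.34).

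The gonadal stroma list had 13 of 15 genes at 20 CPM or more, 7 higher and 1 lower. Of the 11 that reached 20 CPM on both sides, 6 were higher, against 4.08% of all such genes. Dlk1, an imprinted Notch-related gene, had 147 CPM at E11.5 and 679 in Induced D6 (4.63-fold, 4.42 to 4.86), and 958 at E10.5. Maf, a transcription factor of gonadal interstitial cells, had 29.9 and 108 (3.61-fold, 3.24 to 4.02). The matrix genes Dcn and Col3a1 had 34.1 and 76.0 CPM at E11.5 and 98.3 and 211 in Induced D6. Nr2f2 and Pdgfra, which mark the stromal lineage, stayed within 2-fold, with 170.5 and 34.7 CPM at E11.5 and 224 and 22.7 in Induced D6. Dcn was not past 2-fold in cells with at least 2 Nr5a1 UMIs, and had a log2 difference of 0.08 in cells without stromal UMIs, and Tcf21 (58.1 and 125 CPM) fell just under 2-fold with the TMM scaling, with the all-gene median subtracted and as a mean of per-cell CPM. Calb1, described above, was the 1 lower member.

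Of the 13 steroid synthesis genes, 6 reached 20 CPM, Star only through the induced sum and Cyp11a1 only through the E11.5 sum, which fixed their directions. Star, which moves cholesterol into mitochondria, had 15.3 CPM at E11.5 and 43.3 in Induced D6 (2.83-fold, 2.42 to 3.31), above all stages. Cyp11a1, the side chain cleavage enzyme that acts on this cholesterol, had 41.2 and 6.53 (6.31-fold lower, 5.12 to 7.84), and Fdxr, which supplies it with electrons, 48.0 and 23.1. In vivo Cyp11a1 was transient, at 10.3 CPM at E12.5 and 0.277 at E14.5. Against E12.5 the induced log2 difference was -0.65, not past 2-fold, and Fdxr also fell short of it there. At 3000 UMIs per cell Cyp11a1 was found in 0.830% of induced cells (0.493% to 1.31%) and 10.6% of E11.5 cells, unthinned 1.52% and 23.4%. The induced cells without a UMI of the 3 genes had 1.24% (161 cells, 0.151% to 4.42%), unthinned 1.02%. The order of these induced shares turned with the thinning, and the interval is wide. Whether the induced share exceeds background is therefore not read from them.

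Pax8, a transcription factor of the nephric lineage, was the only one of 14 kidney and mesonephros genes to reach 20 CPM, and did so only in Induced D6, at 74.4 CPM against 8.88 (8.38-fold, 6.97 to 10.1). Its partner Pax2 had 0.560 CPM at E11.5 and 1.74 in Induced D6, and Gata3 2.73 and 8.27, all under 20 CPM. Wnt9b had 0 UMIs in the Nr5a1-positive cells of Induced D6 and of every in vivo library.

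Bone morphogenetic proteins act through SMAD1, SMAD5 and SMAD9, which directly induce the Id genes, inhibitors of basic helix-loop-helix factors, and the feedback inhibitors Smad6 and Smad7. Of 13 listed BMP targets 10 reached 20 CPM, and 6 were higher and 0 lower. Id4, Smad6 and Msx2 passed only through the induced sum and could only be higher or within 2-fold. Of the 7 that passed on both sides, Id1, Id2 and Id3 were higher, against 4.08% of all such genes. To let the promoters of these targets be compared, the 300 bases from 250 before to 50 after the start are given for the 3 that hold one of 2 known SMAD motifs (RefSeq, GRCm38.p6). The capitals mark GGCGCC, the core of a BMP-responsive element, in Id2 (chr12:25096043-25096342, minus strand) and Id4 (chr13:48260866-48261165, plus strand), and the SMAD palindrome GTCTAGAC in Smad6 (chr9:64022010-64022309, minus strand).
Id2: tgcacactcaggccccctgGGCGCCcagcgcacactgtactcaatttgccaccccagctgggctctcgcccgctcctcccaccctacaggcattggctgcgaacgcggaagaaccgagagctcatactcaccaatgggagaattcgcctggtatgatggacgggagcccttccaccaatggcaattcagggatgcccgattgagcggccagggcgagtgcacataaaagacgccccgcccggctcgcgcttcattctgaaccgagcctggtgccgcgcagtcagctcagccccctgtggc
Id4: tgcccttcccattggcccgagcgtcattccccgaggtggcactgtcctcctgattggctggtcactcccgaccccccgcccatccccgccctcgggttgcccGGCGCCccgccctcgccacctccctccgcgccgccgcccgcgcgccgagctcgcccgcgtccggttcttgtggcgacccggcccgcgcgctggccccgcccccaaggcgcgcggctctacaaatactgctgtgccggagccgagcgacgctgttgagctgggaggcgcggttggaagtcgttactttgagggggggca
Smad6: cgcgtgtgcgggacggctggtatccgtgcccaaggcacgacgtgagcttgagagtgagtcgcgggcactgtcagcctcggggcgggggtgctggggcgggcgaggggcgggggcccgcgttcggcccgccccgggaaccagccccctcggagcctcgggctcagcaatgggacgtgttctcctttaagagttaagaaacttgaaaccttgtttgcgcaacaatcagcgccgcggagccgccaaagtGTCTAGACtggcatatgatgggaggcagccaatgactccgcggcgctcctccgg
Both motifs read the same on both strands and do not overlap. GGCGCC occurs in 11.9% and GTCTAGAC in 0.213% of the 32851 promoters of that table. Promoters of 5 of the 6 targets were found there, and those of Id3 and Msx2 held neither motif in this window.

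Id1 had 107 CPM at E11.5 (101 to 112) and 571 in Induced D6 (559 to 582), 5.35-fold higher (5.06 to 5.65). Id2, whose promoter is shown above, had 167 and 993 (5.96-fold, 5.71 to 6.22), and Id3 223 and 1045 (4.68-fold, 4.50 to 4.86). All 3 were above every in vivo stage. At E10.5, Id2 and Id3 were also high, at 503 and 849 CPM, and Id1 was at 192. Id4 had 13.2 and 79.6 CPM (6.02-fold, 5.16 to 7.05), and rose in vivo to 52.8 at E14.5. Smad6 had 8.81 and 24.9, and the homeobox gene Msx2 6.16 and 23.2. The inhibitors Smad7 and Bambi were within 2-fold, at 67.9 and 162 CPM at E11.5 and 85.8 and 210.1 in Induced D6, and so was Msx1, at 77.1 and 53.1. The remaining members, Smad9, Nog and Grem1, were under 6 CPM in both sums.

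Among ligands and antagonists of the BMP, activin and TGF-beta family, 8 of 14 reached 20 CPM. Of these 2 were higher and 2 lower (25% each, against 8.08% and 3.53% of all genes). Of the 5 that passed on both sides 0 were higher and 1 lower, against 4.08% and 1.76% of all such genes. Tgfb2 had 18.6 CPM at E11.5 and 137 in Induced D6 (7.35-fold, 6.47 to 8.38) and Tgfb3 5.88 and 25.8, both passing 20 CPM only through the induced sum. The lower members were Fst and Bmp2, the latter passing only through the E11.5 sum. Inha, the inhibin alpha subunit gene, had 86.1 and 85.5 CPM, a log2 difference of -0.01.

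Wnt, FGF, Hedgehog and retinoic acid genes were read in the same way. Of 12 Wnt/beta-catenin targets 7 reached 20 CPM, 2 of them only through the induced sum (Dkk1 among them) and Ccnd1 only through the E11.5 sum. Of the 4 that passed on both sides, 1 was higher, against 4.08% of all such genes. The feedback inhibitor Nkd1 had 60.2 CPM at E11.5 and 213 in Induced D6 (3.54-fold, 3.29 to 3.82) and Dkk1, another Wnt antagonist, 6.57 and 40.2 (6.11-fold, 4.92 to 7.67), while Lef1 had 57.7 in each. The cyclin gene Ccnd1 was lower, with 26.9 and 8.52 CPM (3.15-fold, 2.59 to 3.86), though not past 2-fold in cells without stromal UMIs (-0.29 on the log2 scale) or after thinning before the rule. Of the Wnt ligands, Wnt11 had 2.24 and 23.2 and Wnt5b 25.2 and 57.5.

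Most of the listed FGF/ERK targets encode phosphatases and adaptors that dampen ERK signalling, while Etv1, Etv4, Etv5 and Fosl1 encode transcription factors. Of the 13 listed, 4 reached 20 CPM, 3 of them higher, against 8.08% of all genes. Dusp5 and Spry2 passed only through the induced sum and could only be higher or within 2-fold, and of the other 2 members Dusp6 was higher. Dusp5 had 10.2 CPM at E11.5 and 166 in Induced D6 (16.3-fold, 13.8 to 19.3), Dusp6 20.6 and 75.3 (3.65-fold, 3.21 to 4.16) and Spry2 14.6 and 34.2 (2.34-fold, 1.99 to 2.76). Spry2 reached 42.3 CPM at E14.5 in vivo, above the induced level, and was not past 2-fold against E12.5. Etv4 and Etv5, under 20 CPM in both sums, had 2.80 and 6.36 CPM at E11.5 and 10.3 and 13.9 in Induced D6.

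The Hedgehog co-receptor gene Gas1 had 144 CPM at E11.5 and 508 in Induced D6 (3.54-fold, 3.37 to 3.71). The target genes Gli1, Ptch1 and Hhip, which report pathway output, were all under 20 CPM, at 0.699, 11.1 and 0.490 CPM at E11.5 and 0.684, 8.96 and 0 CPM in Induced D6. The co-receptor gene Boc was at the 2-fold limit (2.01) and under it in 8 of 17 other settings.

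Of 13 retinoic acid genes 8 reached 20 CPM. Of the 4 that did so on both sides 2 were higher and 0 lower, against 4.08% and 1.76% of all such genes. Aldh1a3 and Rdh10 passed only through the induced sum, and Crabp2 and Aldh1a1 only through the E11.5 sum. The 4 higher members included Aldh1a3 (2.03 and 21.8 CPM, a retinoic acid producing enzyme), Rdh10 (5.74 and 20.8) and Dhrs3 (44.3 and 147, a retinaldehyde reductase). Crabp2, a retinoic acid carrier, was lower with 36.0 and 16.0, and so was Aldh1a1, from 24.1 CPM at E11.5, just past the limit at 2.01-fold (1.68 to 2.41). Aldh1a2 and the degrading enzyme Cyp26b1 were nearly level, at log2 differences of -0.10 and 0.12, and Cyp26b1 fell in vivo to 4.22 CPM by E12.5.

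**Figure D4:**
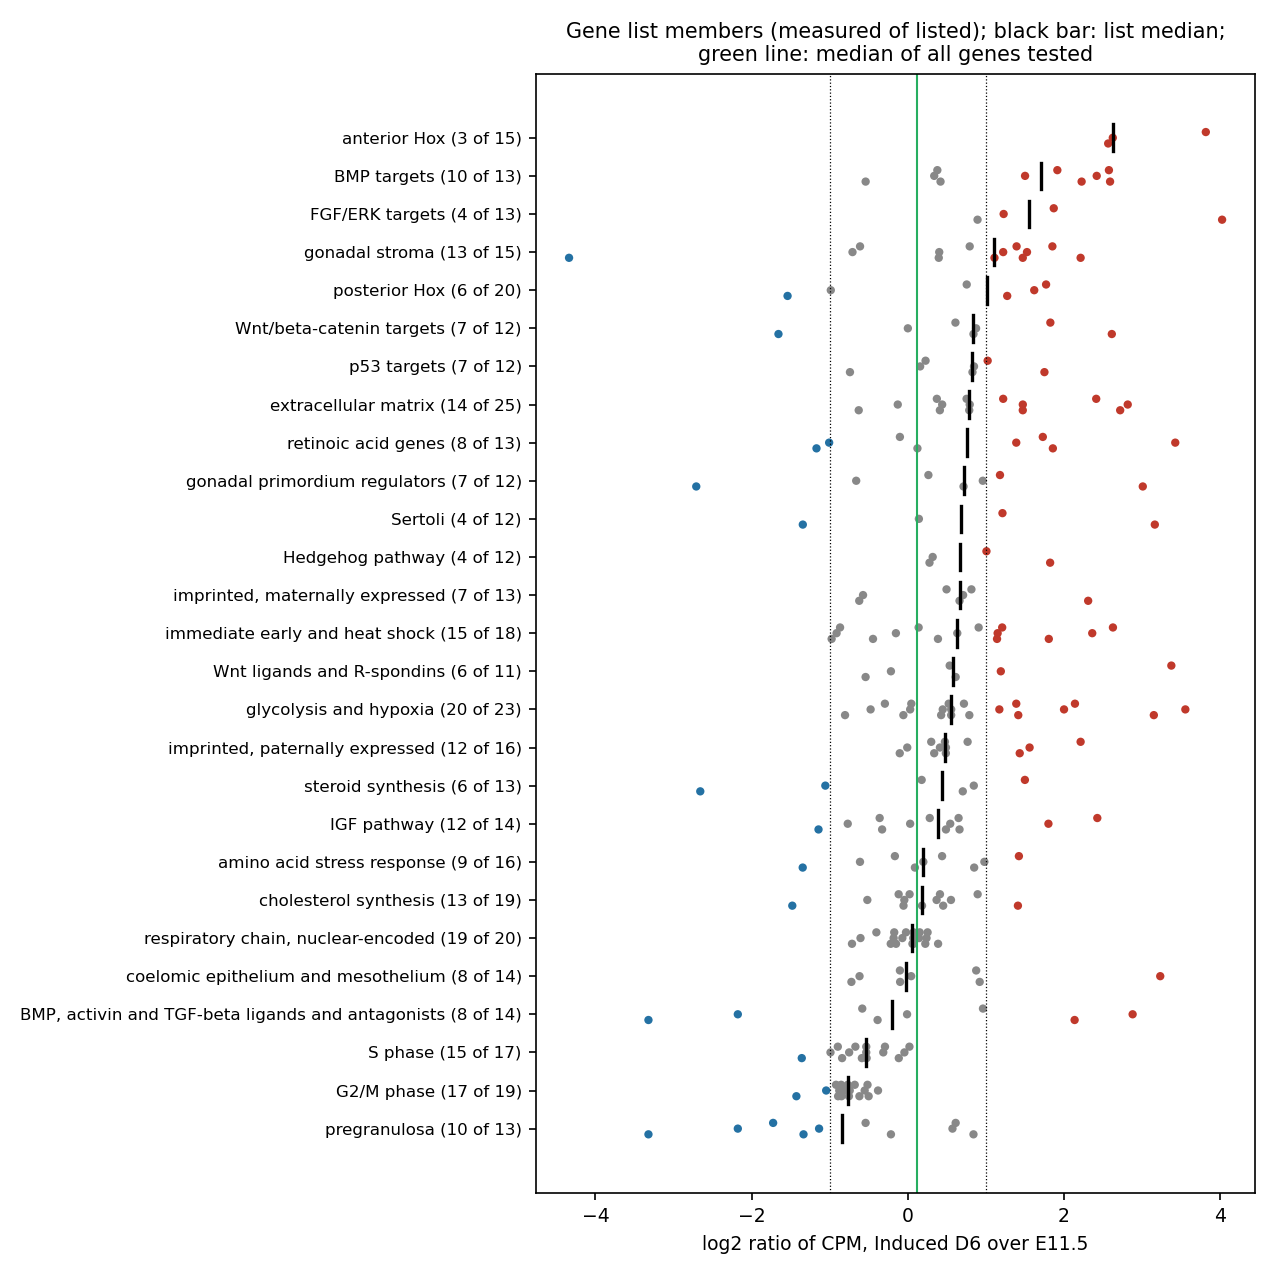
The log2 ratio of CPM, Induced D6 over E11.5, of each list member at 20 CPM or more, for lists with at least 3 such members; numbers in brackets are members measured and listed, red and blue points are past 2-fold, the black bar is the list median and the green line the median of all genes (0.12). The pregranulosa (-0.84), G2/M and S phase lists have the lowest medians, and the BMP targets (1.71) and anterior Hox genes the highest, which the filter raises, since 3 of 10 and 3 of 3 of their members entered only through the induced sum.

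Cell cycle genes mostly stood under their E11.5 level, but few passed 2-fold. Of 17 G2/M genes at 20 CPM or more (19 listed), 2 were lower (11.8%) and 0 higher, against 3.53% and 8.08% of all genes. The highest log2 ratio was -0.38. The 2 lower genes were Cenpe and Aurka, the latter at -1.05 and past 2-fold in 10 of 17 other settings. Of the 15 that passed on both sides 1 was lower, against 1.76% of all such genes. Of 15 S phase genes (17 listed), 1 was lower (6.67%), namely Rrm2. Rrm2 was not past 2-fold against E12.5 (a log2 difference of -0.40) or in cells without cell cycle UMIs. Cenpe, a kinetochore motor gene, had 74.9 and 27.9 CPM (2.69-fold lower, 2.40 to 3.01), Mki67 43.5 and 24.1, and the ribonucleotide reductase gene Rrm2 99.3 and 38.8. In vivo Mki67 declined from 89.9 CPM at E10.5 to 24.9 at E14.5. When all UMIs of a cell were used to split the cells, 498 induced and 123 E11.5 cells had no stromal UMI and 1676 and 663 had one. By this split, which differs from the thinned split given above, 15 of 15 measured G2/M genes were past 2-fold lower in the cells without and 1 of 17 in the cells with a stromal UMI. In the other settings that measured the list, 1 to 6 members passed. The depth of the cells differs between the libraries and enters this split, and its part in these counts was not tested.

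Of 23 glycolysis and hypoxia genes 20 reached 20 CPM, 7 were higher and 0 lower, and 16 were above all of the E11.5 to E14.5 libraries, as were 47.1% of all genes tested. Of the 19 that passed on both sides, 6 were higher, against 4.08% of all such genes. The higher members were Egln3, an oxygen-sensing hydroxylase gene (3.15 and 37.0 CPM), Bnip3, a mitophagy gene (32.5 and 289, 8.87-fold, 8.07 to 9.78), Ndrg1 (23.4 and 103), the glucose transporter gene Slc2a1 (25.7 and 103), Vegfa (20.7 and 55.2), Ankrd37 (27.3 and 71.6) and the hexokinase gene Hk2 (27.1 and 61.2). The enzymes of the lower glycolytic pathway were all within 2-fold and lay on both sides of E11.5. Eno1, Pgk1, Gapdh and Pkm had log2 differences of -0.80, -0.48, -0.29 and -0.06, and Tpi1, Ldha and Pgam1 of 0.03, 0.45 and 0.56. Nuclear-encoded respiratory chain genes, 19 measured of 20, had 0 higher and 0 lower and a median of 0.06.

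Stress-related lists gave mixed results. The immediate early and heat shock list had 15 of 18 members at 20 CPM or more, with 6 higher and 0 lower, against 8.08% and 3.53% of all genes. Ier3 (9.58 and 59.2 CPM) and Zfp36 (16.3 and 83.7) passed only through the induced sum, and of the 12 that passed on both sides 4 were higher, against 4.08% of all such genes. Egr1 (103 and 361) and Junb (79.2 and 176) were among these, while Jun was at 247 and 222 and the chaperone gene Hspa8 at 2404 and 1318. These genes also respond to dissociation, which was the same for both libraries by the labels, and its part was not tested. After thinning before the rule, 3 of the list were higher and 2 lower, and against E12.5 5 were higher and 4 lower. Of 7 p53 targets at 20 CPM or more, Phlda3 (21.3 and 71.5) and Ccng1 (15.0 and 30.5) were higher (28.6%, against 8.08% of all genes). Of the 5 that passed on both sides 1 was higher, against 4.08% of all such genes. The Ccng1 call held in only 7 of 17 other settings, and Cdkn1a had 223 and 134. The cholesterol list had 1 higher (Insig1) and 1 lower (Idi1) of 13, 7.69% each. The amino acid stress list had 1 higher (Ddit3) and 1 lower (Asns) of 9, 11.1% each, against 8.08% and 3.53% of all genes. Of these, Idi1 and Asns were not past 2-fold against E12.5, nor Insig1 after thinning. The metallothionein gene Mt1 had 127 and 429 CPM (3.37-fold, 3.20 to 3.55). Mt2, the other metallothionein gene measured, stayed within 2-fold at a log2 difference of 0.32, and was at -1.03 against E12.5.

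Hox genes give positional identity along the body axis. Of 15 anterior Hox genes (paralogue groups nearest the head), 3 reached 20 CPM, all through the induced sum alone, so that their direction was fixed. Hoxa5 had 4.06 CPM at E11.5 and 57.1 in Induced D6 (14.1-fold, 10.8 to 18.7), Hoxc5 11.4 and 70.3 (6.17-fold, 5.23 to 7.31) and Hoxc4 13.6 and 80.3 (5.92-fold, 5.09 to 6.92). At E10.5 they were at 28.8, 28.8 and 43.2 CPM.

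Of 20 posterior Hox genes 6 reached 20 CPM, Hoxa7 and Hoxb7 only through the induced sum. Of the 3 that passed on both sides 1 was higher and 1 lower, against 4.08% and 1.76% of all such genes. Hoxa7 (16.2 and 49.8), Hoxb7 (6.36 and 21.7) and Hoxc8 (40.9 and 98.9) were higher and Hoxd9 was lower (114 and 39.3, 2.91-fold, 2.65 to 3.19). Under 20 CPM in both sums, Hoxd10 had 16.2 CPM at E11.5 and 0.187 in Induced D6, which is 3 UMIs, Hoxd8 15.2 and 10.9, and Hoxb9 2.45 and 15.7. Hoxa6, Hoxb6, Hoxb8 and Hoxc6 also lay above E11.5, at log2 differences of 2.29, 2.43, 4.67 and 0.75. Hoxa9, Hoxa10, Hoxc9, Hoxc10 and Hoxd11 lay below it, at -2.20, -2.67, -0.99, -6.05 and -3.49. Of these, all but Hoxc6 and Hoxc9 were under 20 CPM in both sums. The lower-numbered groups (such as Hoxa6, Hoxb7 and Hoxc8) thus lay mostly above E11.5 and the higher-numbered mostly below, with Hoxd8 and Hoxb9 as exceptions. Hoxd9 was not past 2-fold against E12.5 or in cells without cell cycle UMIs, nor Hoxc8 in cells without stromal UMIs.

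Imprinted genes mostly stayed within 2-fold. Of the measured genes listed as maternally expressed 14.3% were higher, and of those listed as paternally expressed 25%, against 8.08% of all genes. The maternal list also holds Kcnq1ot1, which is expressed from the paternal allele and had a log2 difference of -0.62. Among those that passed on both sides, 1 of 7 and 2 of 9 were higher, against 4.08% of all such genes. Of the 7 measured genes of the maternal list Meg3 was higher, with 288 CPM at E11.5 and 1427 in Induced D6 (4.96-fold, 4.79 to 5.12). It lies in the same imprinted domain as Dlk1. At E10.5 Meg3 was at 992 CPM, closer to the induced level. H19 had 752 and 1228 CPM. Of the 12 measured genes of the paternal list, Dlk1, Plagl1 (13.8 and 40.8) and Impact (21.8 and 58.9) were higher, and Igf2 had 15.9 and 22.3. Plagl1 passed 20 CPM only through the induced sum. Of the 12 measured genes of the IGF list 16.7% were higher and 8.33% lower, against 8.08% and 3.53% of all genes. Of the 9 that passed on both sides 1 was higher and 1 lower, against 4.08% and 1.76% of all such genes. The binding protein genes Igfbp5 (284 and 989, 3.48-fold, 3.36 to 3.61) and Igfbp6 (13.2 and 71.0) were higher, and Igfbp2 was at 305 and 179. The RNA-binding protein gene Igf2bp1 was lower (69.7 and 31.5), though it missed 2-fold in 3 of 17 other settings.

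Of 25 extracellular matrix genes 14 reached 20 CPM, 6 were higher and 0 lower, against 8.08% and 3.53% of all genes. Of the 10 that passed on both sides 3 were higher, against 4.08% of all such genes. The collagen VI genes Col6a2 (9.86 and 69.4, 7.04-fold, 5.90 to 8.45) and Col6a1 (12.9 and 84.7, 6.58-fold, 5.64 to 7.72) and the proteoglycan gene Vcan (4.41 and 23.5) passed only through the induced sum. In vivo both collagen genes increased with stage, Col6a1 to 47.8 CPM at E14.5. Pluripotency and germ line genes outside the rule were low, with 2 of 20 at 20 CPM or more. Utf1 was lower (62.0 and 24.3) but 0.26 higher on the log2 scale against E12.5, and Nanog had 0.280 and 1.12 CPM.

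Xist is the long noncoding RNA that silences 1 X chromosome in XX cells. In the summed cells it stood at 965 CPM at E11.5 (949 to 981) and 90.1 in Induced D6 (85.6 to 94.9), 10.7-fold lower (10.1 to 11.3; ENSMUSG00000086503, chromosome X:103460366-103483254, minus strand). The lower level was uneven among cells. Of the 2174 induced cells, 140 had an Xist UMI (6.44%, 5.44% to 7.55%), and these held a median of 10 UMIs each, while 2034 held none. At E11.5, 781 of 786 cells had one (99.4%, 98.5% to 99.8%), with a median of 14. The median depth was 6815.5 UMIs in the induced cells with Xist and 6717.5 in those without. Summed over the induced cells with a UMI, Xist was at 1343 CPM, against 967 CPM in the same kind of E11.5 cells. Over all quality-passing cells the shares were 5.81% and 87.1%. Tsix, the antisense partner, had 5.81 and 0.311 CPM, and whether the counting used strand is not given in the sources used here.

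**Figure D5:**
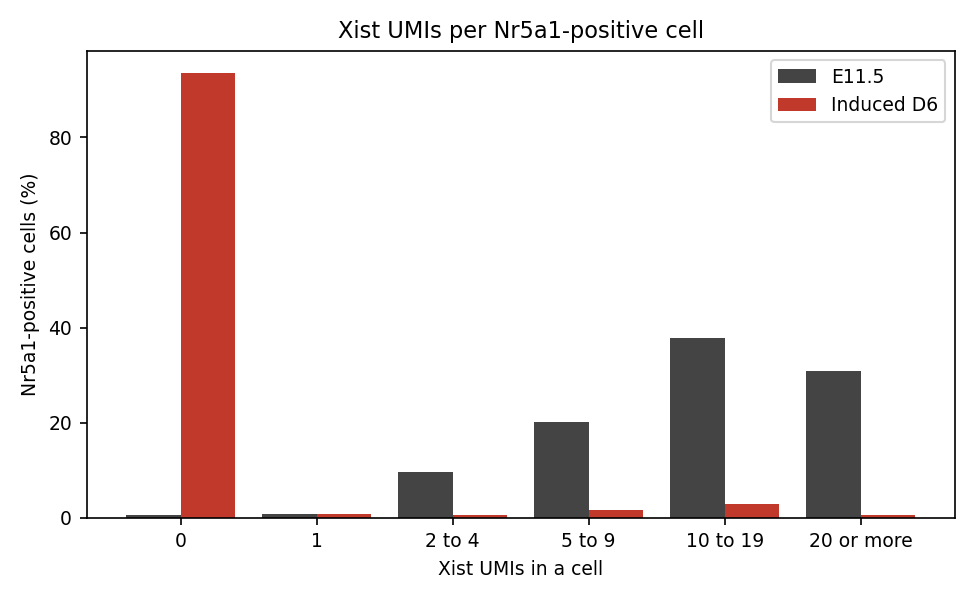
Percent of Nr5a1-positive cells by the number of Xist UMIs in the cell, E11.5 in grey (786 cells) and Induced D6 in red (2174 cells), unthinned. Most induced cells (93.6%) hold 0 Xist UMIs, and a small group holds 5 or more, the range where most E11.5 cells lie.

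The induced cells were then split by Xist, a split chosen after its values were seen and in which the cells share 1 library. X-linked genes other than Xist gave 3.52% of UMIs in the 2034 cells with 0 Xist UMIs and 3.76% in the 112 cells with 5 or more, against 3.71% at E11.5. The ratio of the first to the second was 0.937 (0.927 to 0.948). Over 116 X-linked genes at 50 CPM or more the median log2 ratio was -0.12, and over 3149 autosomal genes 0.01, with 45 of the 116 above the autosomal median. Cells without Xist thus held no higher share of X-linked UMIs than cells with it. Compared with E11.5, the median log2 ratio of the X chromosome minus that of the autosomes was -0.04 (210 genes), within the range of single autosomes, -0.07 on chromosome 13 to 0.10 on chromosome 16. The Y-linked genes Ddx3y, Eif2s3y, Kdm5d and Uty had 0 UMIs in both sums, which allows up to 0.187 CPM in Induced D6 and 0.210 CPM at E11.5.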

How the data were processed

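Droplet single-cell RNA-seq was analysed for 6 libraries, 1 per group. Per the submitters' processing notes, the authors used Cell Ranger 3.0.2 with the mm10 build. The values they deposited are raw UMI counts (whole numbers, 1 matrix per library), and how barcodes were called as cells is not given in the sources used here. UMIs were summed over the cells that met the rule and given as CPM of that sum, with exact Poisson 95% intervals. Ratios have exact conditional binomial intervals and shares Clopper-Pearson intervals. A gene at 0 was set to 3 counts for a ratio. Genes at 20 CPM or more in either sum were compared, without the 8 genes of the rule, and a ratio of 2-fold was the limit for higher or lower. No test across samples was possible with 1 library per side. The rule's cells are chosen on values of these data, and its members and the gene lists were chosen with earlier results of these data known.

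Genes named were the 10 largest ratios in each direction at 50 CPM or more (without rule, mitochondrial, ribosomal protein, haemoglobin and clone-named genes), up to 4 members of each of 31 lists with the largest absolute log2 ratio, and 27 key genes. Some genes that the rule names are not reported here. Other list members, partner copies and Y-linked genes were named after their values were seen. Alternatives were other cell filters, thinning to 3000 UMIs, the mean of per-cell CPM, TMM factors (edgeR 4.0.16), centring on the median gene, totals without mitochondrial and ribosomal protein genes, other CPM limits, cells without cell cycle UMIs and E12.5 in place of E11.5. The split by stromal UMIs was added after the data were seen. Doublets were kept, and an alternative removed the highest Scrublet scores (scanpy 1.11.5) at 0.8% per 1000 barcodes, which took 184 induced and 20 E11.5 cells of the rule. The scripts were tested on simulated data. Coordinates are from GENCODE vM21 (GRCm38), which matched 31011 of 31053 gene identifiers. The correlations use a pseudocount of 10 CPM, and random draws used 1 fixed seed.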

Additional observations from a re-analysis of the deposited data

How the results depend on the processing

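Over 17 other settings, 2 of them chosen after seeing the data, 71 of the 92 named genes past 2-fold stayed past it in every setting where they were measured. The count of lower genes, 226, became 397 after thinning to 3000 UMIs before the rule (1030 and 188 cells), 361 with totals without mitochondrial and ribosomal protein genes, and 343 in cells without stromal UMIs. At a limit of 50 CPM the counts were 249 higher and 116 lower, and at 5 CPM 1072 and 499, where the number of genes tested sets the change. Against E12.5, 786 genes were higher. Utf1 turned direction against E12.5 (0.26 on the log2 scale). Except for the CPM limits, the cause of these shifts was not tested. Depth limits the shares of rare transcripts, since induced cells had fewer UMIs each, and the 56 cells at E10.5 give coarse levels. No library could be left out, because each side has 1. No paired analysis was possible because each group holds 1 library and no comparison has a second replicate number.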
